A study of Mus musculus with 10 samples.

Results

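Lymphocytes are a minor fraction of liver cells, and the transcripts described here are those of 44 genes that mark them in mouse liver: 4 shared by most lymphocytes, 21 of T cells, 8 of natural killer (NK) and cytotoxic cells, 8 of B cells and 3 of antibody secretion. The genes were taken by name from the array's own annotation, with older symbols included, so that Tnfrsf7 stands for Cd27 and Igh-6 for Ighm. All 44 had at least 1 probe among the 27670 genes with non-control probes. Of these 44, 30 gave signal well above background on at least 4 of the 5 arrays of at least 1 group and were tested among 15806 genes, and 14 were not.

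The study compared liver total RNA of 1-year-old C57BL/6 mice, wild type (WT) or lacking the nuclear orphan receptor TAK1/TR4 (KO), which is the product of Nr2c2 and not the kinase that shares the name TAK1. Each group had 5 arrays, and each array was hybridised with cRNA made from 500 ng of RNA and labelled with Cy3. The labels do not say that the arrays hold separate mice, so p-values describe only how much these samples vary, which may be technical. How the gene was disrupted, in which cells, and whether controls were littermates, are not stated in the labels.

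T cells recognise antigen through a receptor that signals through the CD3 chains, whose activation motifs are phosphorylated by the kinase LCK and then bind ZAP70, which passes the signal to the adaptor LAT. B cells use a membrane immunoglobulin with CD79A and CD79B in the same way, and their descendants, the plasma cells, secrete immunoglobulin in large amounts. NK cells and cytotoxic T cells kill with perforin and granzymes, and both are residents of the liver sinusoids. In RNA of whole liver, a change in the number of lymphocytes and a change in RNA per cell cannot be told apart.

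Every value is a log2 signal minus the 75th percentile of that array's non-control probes, written for replicates 1 to 5 of a group in that order. A probe's level cannot be set against another probe's, since probes bind with unequal strength. The probes below are shown because they read coding or spliced sequence of the genes the results turn on. Positions are those of the files (mm7), each sequence reads 5′ to 3′ as printed on the array, and a span longer than 60 bases means that the files place the probe across an intron. The Cd3d, Cd3g and Cd79a probes read receptor signalling chains, that of Cd6 reads a T cell coreceptor, and those of Ighm and Ighg read antibody heavy chains. The capitals in Cd3d mark the codons from tyrosine to leucine in the paired immunoreceptor tyrosine-based activation motif, the stretch that LCK phosphorylates.
Cd3d, chr9:44920433-44920664: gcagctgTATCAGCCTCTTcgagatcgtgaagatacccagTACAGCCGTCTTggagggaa
Cd3g, chr9:44907978-44908562: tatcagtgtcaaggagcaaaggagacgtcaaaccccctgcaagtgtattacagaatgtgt
Cd6, chr19:10473057-10474313: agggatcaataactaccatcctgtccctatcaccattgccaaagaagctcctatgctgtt
Cd79a, chr7:21688822-21689079: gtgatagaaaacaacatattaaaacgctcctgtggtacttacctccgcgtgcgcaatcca
Ighm, chr12:110942769-110942828: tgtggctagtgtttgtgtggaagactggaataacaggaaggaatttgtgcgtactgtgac
Ighg, chr12_random:5421654-5421713: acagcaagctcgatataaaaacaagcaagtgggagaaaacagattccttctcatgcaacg
The paired codon pattern was found in 74 of 41174 array probes of 60 bases (0.18%) as printed and in 74 on the opposite strand, and Cd3d was the only one of the 66 member probes that held it as printed.

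The labels were checked first. Of 15 hepatocyte markers on the array, such as Alb and Ttr, all 15 were above background on all 10 arrays. Both probes named Nr2c2 gave signal on every array, with knockout minus wild-type differences of 0.36 and 0.44. Another probe that the files place between them was above background on 5 WT and 0 KO arrays, with means of -2.22 and -6.49. A further probe placed between them was above background on 0 WT and 0 KO arrays. Which part of the gene was deleted is not stated in the labels. Between 51.6% and 62.9% of spots were above background on each array. Slide 1 held WT1 to WT4, and slide 2 held WT5 with KO1, KO2 and KO3. KO5 was on slide 3, and KO4 on slide 4, scanned on a later day. Only slide 2 holds both groups, so on the other slides slide and genotype cannot be told apart.

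None of the 30 tested lymphocyte markers changed between knockout and wild type at an adjusted p under 0.05 (limma, Benjamini-Hochberg over 15806 genes), where 5.91% of all tested genes did, 2.43% upwards and 3.48% downwards. At an unadjusted p under 0.05 there were 3 members, Tcf7, Cd37 and Prf1, all higher in the knockout, against 23.7% of all tested genes in either direction, 11.6% higher and 12.1% lower. Prf1 had passed the filter on low signal only through the knockout, so its direction was favoured by its selection. In all, 24 members passed through both groups, 2 through the knockout alone and 4 through the wild type alone. The arrays of the groups did not overlap for 1 member, Tcf7, against 9.61% of all tested genes. Differences were positive for 17 members and negative for 13, and their median was 0.10 beside 0.011 for all genes. The 95% intervals of single members were wide: that of the T cell receptor chain Cd3d ran from -0.90 to 0.85, so changes of up to about that size are not excluded by these arrays.

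For 26 of the 30 members the difference between the groups was smaller than the larger of the groups' standard deviations, the exceptions being Tcf7, Cd37, Prf1 and Cd4. KO2 was the highest of the 10 arrays for 20 of 30 members, beside 17.4% of all genes tested, and KO1 was the lowest for 14, beside 10.01%. The standard deviation was larger in the knockout for 26 of 30 members, beside 78.5% of all genes, with a median ratio of 1.97 beside 1.61. KO2 also had the lowest hepatocyte signal: the summed level of the 15 markers, in multiples of the array's 75th percentile, was 1829 there, 2233 to 2501 on the WT arrays and 2122 to 2534 on the other KO arrays. On that array the median hepatocyte marker lay 0.61 below its wild-type mean. The markers were not alike there. Cyp3a11 stood at 3.23 beside a wild-type mean of 6.75, while Hnf4a, at 3.93, was the highest of its 10 values. Hnf4a, Fgb, Cyp2e1 and Apoa1 lay above their wild-type means on KO2 and the other markers below. The summed level of 20 leukocyte-wide genes, such as those of the common leukocyte antigen and integrins, was 17.8 on KO2, 12.1 to 15.5 on the WT arrays and 10.01 on KO1. Their part in the lymphocyte values was not tested.

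**Figure D1:**
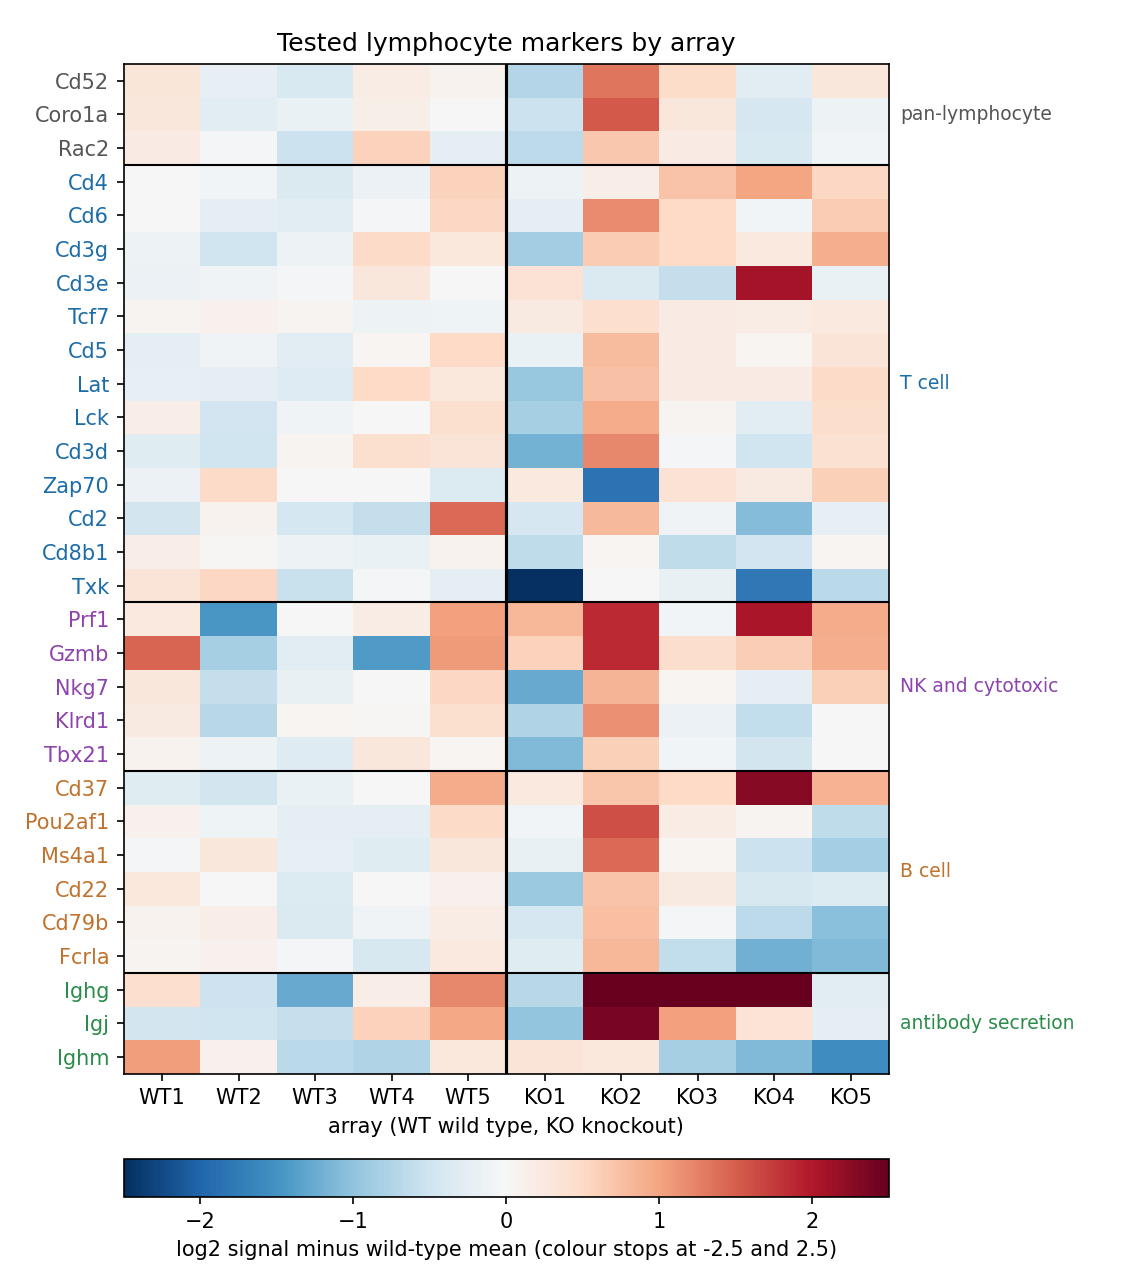
Signal of the 30 tested lymphocyte markers on each array, as the log2 signal minus the gene's wild-type mean (red above, blue below, colour stopping at 2.5), with rows grouped by lineage. The KO2 column is red for 28 of 30 rows, with Zap70 and Cd3e the blue exceptions, while the KO1 column is mostly blue.

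Lineage medians by array show the same columns. For each member its wild-type mean was subtracted, and the median over the lineage's tested members was taken on each array. The T cell median was -0.14, -0.08, -0.12, -0.017 and 0.27 on WT1 to WT5 and -0.42, 0.63, 0.20, 0.04 and 0.38 on KO1 to KO5. That of B cells was 0.085, 0.047, -0.22, -0.16 and 0.27 on WT1 to WT5 and -0.25, 0.80, 0.12, -0.47 and -0.74 on KO1 to KO5. In both lineages KO2 was the highest array, while the lowest was KO1 for T cells and KO5 for B cells.

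The NK and cytotoxic median was 0.24, -0.69, -0.19, 0.026 and 0.51 on WT1 to WT5 and -0.75, 1.15, -0.062, -0.23 and 0.60 on KO1 to KO5. The antibody secretion median was 0.42, -0.51, -0.68, 0.16 and 0.98 on WT1 to WT5 and -0.68, 2.38, 1.02, 0.34 and -0.26 on KO1 to KO5, the widest range of the 5 lineages. The pan-lymphocyte median ran from -0.37 to 0.29 on the WT arrays and from -0.66 on KO1 to 1.33 on KO2. In 4 of the 5 lineages the KO arrays reached both above and below the WT arrays, and in antibody secretion the lowest WT and KO medians were level.

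**Figure D2:**
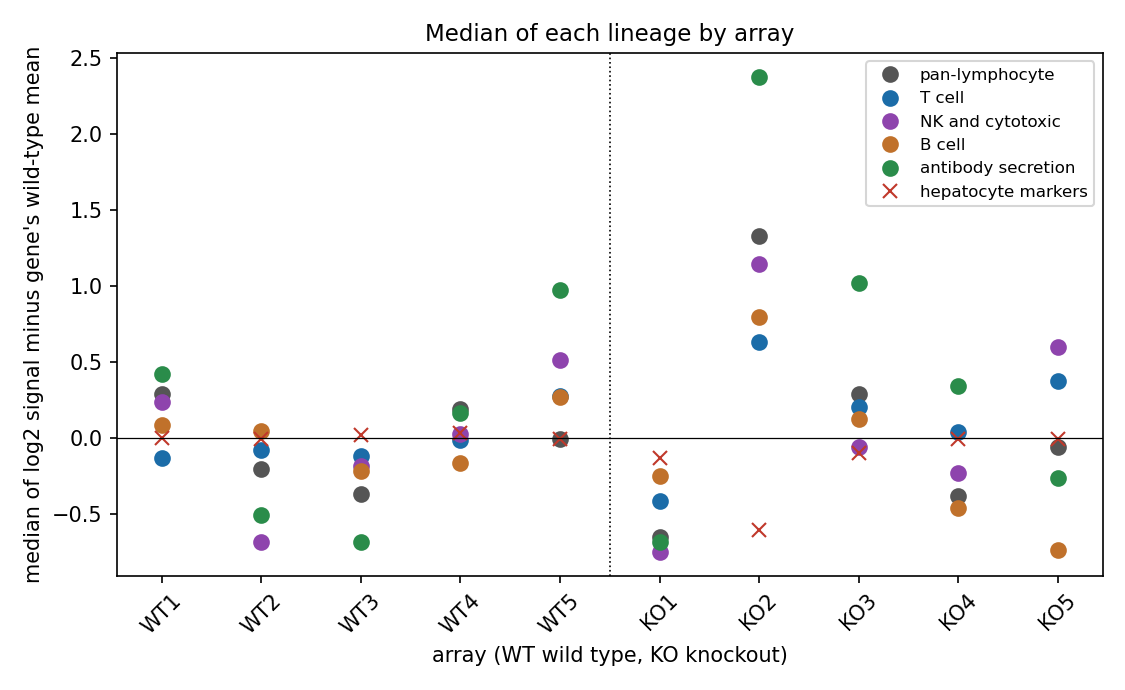
Median over each lineage's tested members of the log2 signal minus the gene's wild-type mean, by array (points), with the same median for 15 hepatocyte markers (crosses). KO2 has the highest median of every lineage and the lowest hepatocyte median, -0.61, while the other 9 arrays have hepatocyte medians between -0.13 and 0.033.

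As differences between the groups, the medians of the fitted values were 0.14 for the 3 pan-lymphocyte members, 0.14 for 13 T cell members, 0.0018 for 5 NK and cytotoxic members, -0.082 for 6 B cell members and 0.50 for 3 antibody members, beside 0.011 for all genes. Without KO2 they were -0.20, 0.10, -0.21, -0.37 and 0.032 in that order. Within slide 2, where WT5 stands alone against KO1, KO2 and KO3, they were 0.29, -0.26, -0.25, -0.098 and -0.17. The sign of 4 of the 5 lineage medians thus turned in 1 of these 2 comparisons or both, the B cell median being the exception, and that one was 0.31 after normexp background correction.

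**Figure D3:**
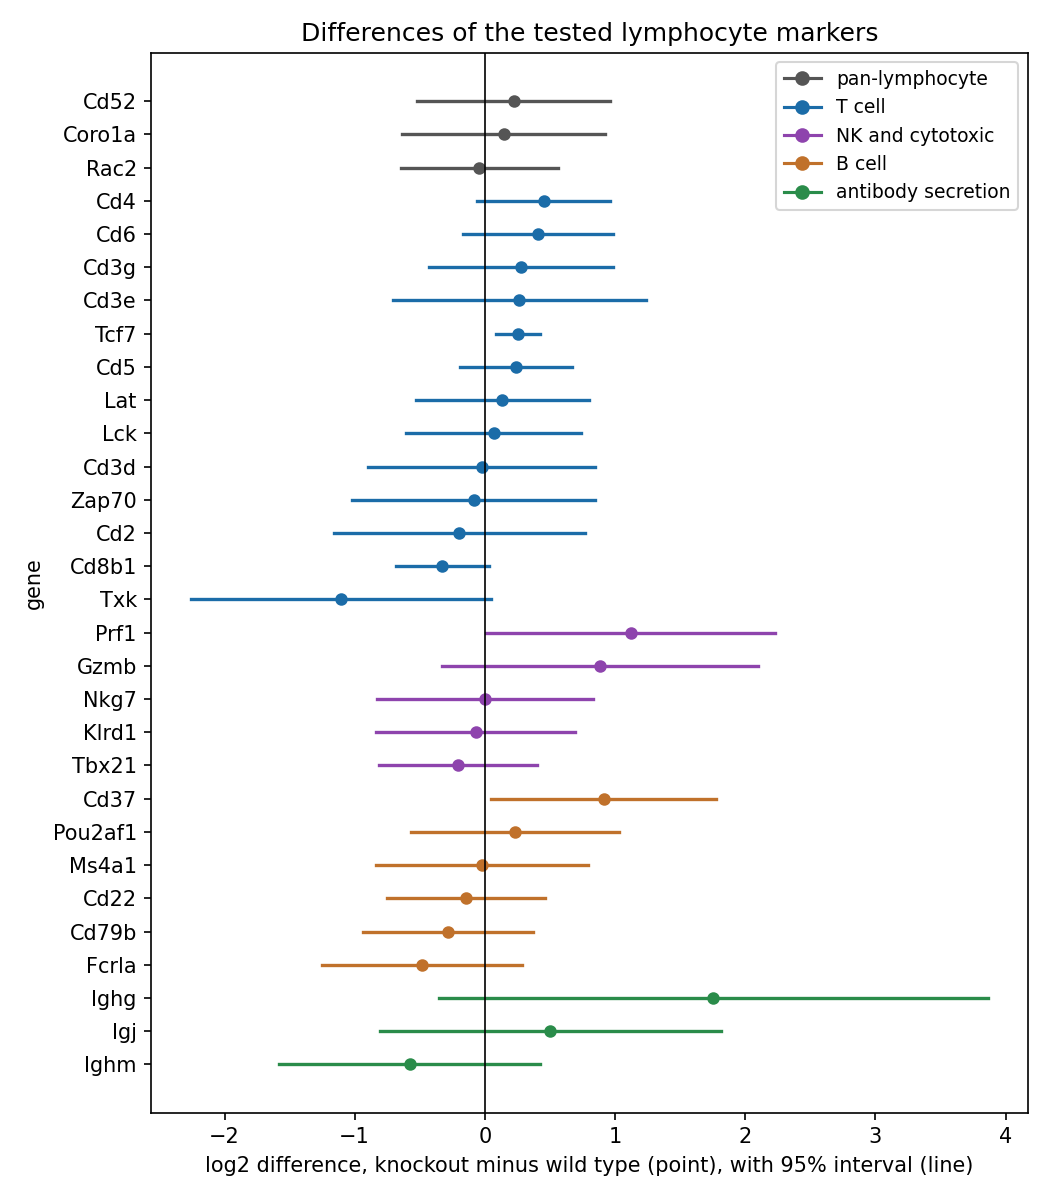
Log2 difference, knockout minus wild type, of each tested member (points) with its 95% interval from the limma fit (lines), by lineage. Tcf7, Prf1 and Cd37 are the members whose interval lies above 0, and none lies below it; none of the adjusted p-values is under 0.05.

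Of the genes shared by most lymphocytes, none differed beyond the spread. Cd52, a small glycoprotein on the surface of lymphocytes, stood at 1.80, 1.29, 1.12, 1.69 and 1.58 on the WT arrays and at 0.77, 2.83, 1.96, 1.24 and 1.78 on the KO arrays. KO1 was the lowest and KO2 the highest of all 10, and the groups overlapped. The difference was 0.22 ± 0.33 (SE, n = 5 per group), with an adjusted p of 0.73 in the limma fit and an exact permutation p of 0.603.

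Coro1a, an actin-binding protein of haematopoietic cells, stood at 0.85, 0.31, 0.40, 0.71 and 0.56 in wild type and at 0.024, 2.09, 0.86, 0.14 and 0.44 in the knockout. Here too KO1 was lowest and KO2 highest, and without KO2 the difference of 0.14 ± 0.35 became -0.20. Rac2, a signalling protein of haematopoietic cells, stood at -0.24, -0.49, -0.99, 0.13 and -0.67 and at -1.10, 0.23, -0.24, -0.83 and -0.51, a difference of -0.043 ± 0.27. Its groups overlapped, with the same extreme arrays. Cd69, an early activation antigen, was above background on 1 array, KO4, and was not tested.

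Among T cell genes, the CD3 chains that carry the receptor's signal came first. Cd3d stood at -3.52, -3.72, -3.16, -2.81 and -2.89 on the WT arrays and at -4.40, -2.02, -3.24, -3.72 and -2.84 on the KO arrays. The highest and the lowest value both lay in the knockout, on KO2 and KO1, and the group means were nearly level, with a difference of -0.025 ± 0.39 (adjusted p = 0.979, limma). Cd3g, another CD3 chain, ran from -4.34 to -3.38 in wild type and from -4.73 on KO1 to -2.95 on KO5, with a difference of 0.28 ± 0.32 (adjusted p = 0.636, limma).

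Cd3e, the third CD3 chain, departed from Cd3d and Cd3g on 1 array. It stood at -2.14, -2.09, -2.04, -1.71 and -1.98 in wild type and at -1.63, -2.36, -2.59, 0.087 and -2.16 in the knockout. The KO4 value lay 2.18 above the median of the other 9 arrays, while on KO4 Cd3g, at -3.61, lay within its WT range and Cd3d, at -3.72, at the lower end of its own. With KO4 the Cd3e difference was 0.26 ± 0.44 (adjusted p = 0.756, limma), and without it -0.19.

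Of the 66 member probes, 8 were highest on KO4, among them those tested for Prf1 and Cd4 and 3 of Ncr1, Cd8a and Cd69 that did not pass the filter. By gene, KO4 was highest for 4 of the 30 tested members (13.3%), near the 13.6% of all genes tested. A probe of this kind was set beside a second one of its gene for Cd6, a receptor that tunes T cell activation, and for Cd37, a tetraspanin of B cells. The Cd6 probe printed above stood at -4.18, -3.92, -3.58, -3.12 and -3.92 in wild type and at -3.70, -4.21, -4.33, -1.23 and -3.16 in the knockout, highest on KO4 by 2.69 over the median of the others. The Cd6 probe that was tested stood at -1.94, -2.17, -2.21, -1.98 and -1.44 and at -2.17, -0.77, -1.44, -2.01 and -1.31, where KO4 lies within the WT range and KO2 is highest. Its difference was 0.41 ± 0.26 (adjusted p = 0.376, limma), beside 0.42 for the other probe. Whether these KO4 values reflect the transcripts or the array was not tested.

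**Figure D4:**
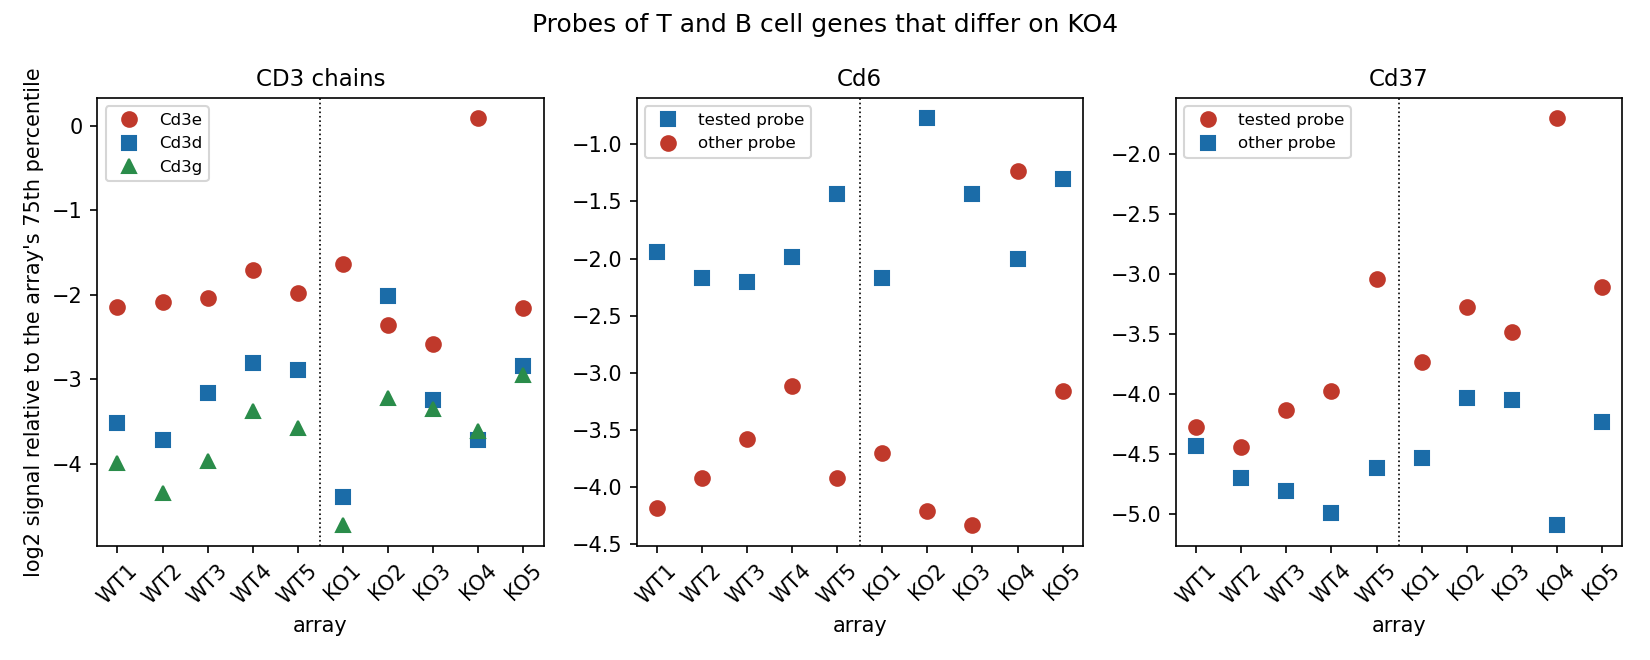
Log2 signal relative to the array's 75th percentile, by array, of the 3 CD3 chains (left), of the 2 Cd6 probes (middle) and of the 2 Cd37 probes (right). On KO4 the Cd3e probe, 1 Cd6 probe and the tested Cd37 probe are at 0.087, -1.23 and -1.70, each the highest of its 10 values, while Cd3d, Cd3g and the other probes are not highest there.

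Of the coreceptors that sort T cells into helper and cytotoxic cells, Cd4 was near the detection limit, Cd8a was below it and Cd8b1 was above it. Cd4, printed in 10 spots per array, stood at -4.14, -4.21, -4.50, -4.28 and -3.57 in wild type and at -4.28, -3.98, -3.42, -3.15 and -3.63 in the knockout. The probe was above background on 4 WT and 5 KO arrays, and the median standard deviation over spots of one array was 0.23. All KO arrays but KO1 lay above the wild-type mean, and WT5 lay among them. The difference was 0.45 ± 0.23 (95% interval -0.061 to 0.96, adjusted p = 0.266, limma; exact permutation p = 0.103), and within slide 2 it was -0.32.

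Cd8a, the cytotoxic coreceptor chain, was not above background on any array with any of its 3 probes. Its signal there was -5.15, -6.48, -6.18, -6.01 and -4.59 in wild type and -4.89, -4.55, -5.64, -5.83 and -4.53 in the knockout, which gives neither a fold nor a bound on the change. Cd8b1, its partner chain, was measured by 2 probes that disagree in sign. The probe used in the test stood at -0.33, -0.46, -0.62, -0.67 and -0.41 and at -1.13, -0.45, -1.13, -0.98 and -0.44, a difference of -0.33 ± 0.16 (adjusted p = 0.246, limma), but the files place it on chromosome 5, while the gene's other probe lies on chromosome 6 beside those of Cd8a. That second probe stood at -2.84, -3.70, -3.21, -3.60 and -2.23 and at -3.18, -2.497, -3.07, -2.88 and -2.80, a difference of 0.23 with an adjusted p of 0.646 over probes (limma). The direction for Cd8b1 is therefore not settled by these arrays.

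Tcf7, the transcription factor TCF1 of T cell development and memory, was the only tested member whose groups did not overlap. It stood at -2.26, -2.23, -2.28, -2.47 and -2.44 in wild type and at -2.12, -1.91, -2.13, -2.15 and -2.10 in the knockout. Every KO array lay above every WT array, by a narrow margin between WT2 and KO4, and KO2 stood apart above the other KO arrays. The difference was 0.25 ± 0.077 (95% interval 0.082 to 0.42), a 1.19-fold ratio, with an adjusted p of 0.085 in the limma fit. The exact permutation p was 0.0079, the smallest that 5 against 5 arrays can give. Its second probe differed by 0.11, with overlapping groups. Over all 29 alternative analyses the sign stayed positive and the adjusted p never fell under 0.05, the lowest being 0.0547.

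Of the receptor-proximal kinases and adaptors, Lck stood at -3.15, -3.81, -3.42, -3.31 and -2.92 in wild type and at -4.15, -2.40, -3.26, -3.59 and -2.87 in the knockout. The extremes were again KO1 and KO2, and the difference was 0.067 ± 0.30 (adjusted p = 0.917, limma). Lat, the membrane adaptor, ran from -4.67 on KO1 to -2.99 on KO2 in the knockout, around its WT range of -4.05 to -3.23. It was above background on 5 WT and 3 KO arrays.

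Zap70, the kinase recruited to phosphorylated CD3, went the other way on KO2. Its level was 1.40, 2.03, 1.56, 1.53 and 1.21 in wild type and 1.79, -0.31, 1.90, 1.77 and 2.15 in the knockout, so that KO2 was the lowest array, 1.85 below the wild-type mean, where Cd3d was 1.20 and Lck 0.92 above theirs. The other 4 KO arrays lay between 1.77 and 2.15, and without KO2 the Zap70 difference moved from -0.084 ± 0.42 to 0.36 (adjusted p = 0.211, limma). The gene has 1 probe, so no second reading was at hand.

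Txk, a Tec-family kinase of T cells, was the lowest in the knockout relative to wild type among T cell members. It stood at -3.72, -3.52, -4.59, -4.10 and -4.28 in wild type and at -6.94, -4.03, -4.23, -5.82 and -4.72 in the knockout. It was above background on 4 WT and 2 KO arrays, and KO1 and KO4 were the low ones, while KO2 and KO3 lay inside the WT range. The difference was -1.10 ± 0.52 (adjusted p = 0.228, limma), and its size depends on values below detection. Txk passed the filter only through the wild type, so a negative difference was favoured by its selection. With low KO values raised to the lowest signal above background on their arrays, the KO mean was 1.32-fold lower. WT4, at -4.10, was itself under the limit of its array, -4.03, and was left as measured, so this is not a strict bound. It also leaves out the spread between arrays. After normexp background correction the difference was positive, 0.084.

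Cd5, an inhibitory receptor of T cells and of a subset of B cells, differed by 0.24 ± 0.19, and Cd2, an adhesion receptor, by -0.20 ± 0.43, with adjusted p-values of 0.493 and 0.82 (limma). Cd2 was highest on WT5, at -2.95, and was above background on 4 WT and 2 KO arrays. Foxp3, the regulator of regulatory T cells, was above background on 0 arrays, and the scanner program had put a substitute value in place of its signal on all 10. Those values were -7.14, -6.79, -7.07, -5.98 and -6.41 and -6.91, -6.73, -5.62, -6.58 and -6.79, and their order carries no information on the gene. The same substitution on all 10 arrays held for the costimulatory receptors Cd28 and Ctla4. Trat1, an adaptor of the T cell receptor, was also above background on 0 arrays. Cd27, Gata3 and Sh2d1a were above background on 2, 5 and 3 of 10 arrays and did not enter the test.

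Of the NK and cytotoxic genes, the pore-forming protein and a granzyme had the largest positive differences, near the detection limit. Prf1, perforin, stood at -5.26, -6.95, -5.50, -5.30 and -4.46 in wild type and at -4.66, -3.62, -5.56, -3.46 and -4.57 in the knockout. It was above background on 0 WT and 4 KO arrays and entered the test only through the knockout, so a positive difference was favoured by its selection. With low WT values raised to the lowest signal above background on their arrays, the KO mean was 1.28-fold higher. KO3, at -5.56, was itself under the limit of its array, -3.805, and was left as measured, so this is not a strict bound. It also leaves out the spread between arrays. The fit gave 1.12 ± 0.50 (adjusted p = 0.207, limma) with an exact permutation p of 0.103, and within slide 2 the difference was -0.15.

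Gzmb, granzyme B, stood at -3.37, -5.66, -5.09, -6.24 and -3.75 and at -4.24, -2.95, -4.39, -4.20 and -3.91, above background on 2 WT and 4 KO arrays. It too entered the test only through the knockout. WT1 and WT5 lay within the KO range, and the difference of 0.88 ± 0.54 had an adjusted p of 0.356 (limma).

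Gzma, granzyme A, was above background on 3 arrays. Its signal was -3.03, -6.00, -5.83, -6.02 and -4.57 in wild type and -5.97, -3.12, -5.67, -6.48 and -4.32 in the knockout, with WT1 and KO2 the highest arrays and no separation of the groups. Ncr1, the NK-cell receptor NKp46, stood at -5.74, -6.90, -7.21, -5.10 and -6.50 and at -6.99, -6.80, -5.76, -4.70 and -6.84 and was above background on 0 arrays. Eomes, a T-box factor of NK cells, was likewise above background on 0 arrays.

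Tbx21, the T-box factor T-bet of NK and type 1 T helper cells, stood at -2.60, -2.82, -3.02, -2.42 and -2.64 in wild type and at -3.81, -2.10, -2.77, -3.15 and -2.71 in the knockout. KO1 was lowest and KO2 highest, and the difference was -0.21 ± 0.27 (adjusted p = 0.687, limma). Klrd1, the CD94 chain of NK receptors, and Nkg7, a protein of cytotoxic granules, differed by -0.071 ± 0.34 and 0.0018 ± 0.37, also with KO1 lowest and KO2 highest. Their adjusted p-values were 0.923 and 0.998 (limma).

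In the B cell lineage the receptor's signalling chains differed in detection. Cd79b stood at -0.78, -0.71, -1.24, -0.97 and -0.69 in wild type and at -1.30, -0.12, -0.91, -1.54 and -1.93 in the knockout, highest on KO2 and lowest on KO5. The difference was -0.28 ± 0.29 (adjusted p = 0.602, limma). Cd79a, its partner, was not above background on any array, with signals of -6.23, -7.12, -6.52, -6.27 and -5.68 and -6.55, -4.86, -5.92, -6.90 and -6.43.

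Ms4a1, which encodes CD20 on mature B cells, stood at -2.05, -1.71, -2.20, -2.31 and -1.72 and at -2.19, -0.59, -1.94, -2.53 and -2.84. KO2 was again highest and KO5 lowest, and the difference was -0.019 ± 0.37 (adjusted p = 0.982, limma), or -0.38 without KO2. Pou2af1, the B cell coactivator OBF-1, was also highest on KO2, at -0.82, and lowest on KO5, at -3.08, with a WT range of -2.68 to -1.96. Cd22, an inhibitory B cell receptor, differed by -0.14 ± 0.27 with KO2 highest and KO1 lowest. Blk, a Src-family kinase of B cells, was above background on 0 arrays.

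Fcrla, an intracellular Fc receptor-like protein of B cells, stood at -4.27, -4.23, -4.38, -4.74 and -4.09 in wild type and at -4.65, -3.51, -4.97, -5.55 and -5.45 in the knockout. It entered the test only through the wild type, with 4 WT and 2 KO arrays above background, so a negative difference was favoured by its selection. With KO values raised as for Txk, the KO mean was 1.01-fold lower, again without the spread between arrays. This too is not a strict bound, since WT4, at -4.74, was under the limit of its array and left as measured. After normexp background correction the difference was positive, 0.29. All KO arrays except KO2 lay below the wild-type mean, and the difference was -0.48 ± 0.35 (adjusted p = 0.431, limma). Without KO2 it was -0.81 with an adjusted p of 0.0468, the only member to pass the threshold when 1 array was left out.

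Cd37 had the smallest unadjusted p of the B cell members. It stood at -4.28, -4.44, -4.14, -3.97 and -3.04 in wild type and at -3.73, -3.28, -3.48, -1.70 and -3.11 in the knockout. All KO arrays lay above the wild-type mean, but WT5 lay above 4 of them. The difference was 0.91 ± 0.39 (95% interval 0.048 to 1.78, adjusted p = 0.192, limma; exact permutation p = 0.056). It was 0.57 without KO4 and -0.45 within slide 2. The gene's second probe, above background on 1 WT and 3 KO arrays, was lowest on KO4, at -5.09, where the tested probe was highest.

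Of all members, Ighg spanned the widest range between arrays. Ighg, an immunoglobulin gamma heavy chain, stood at -2.20, -3.14, -3.87, -2.45 and -1.42 in wild type and at -3.30, 1.90, -0.10, 0.073 and -2.88 in the knockout. KO2, KO3 and KO4 lay above every WT array, while KO1 and KO5 lay within the WT range, so the groups overlapped. The highest array exceeded the lowest 54.4-fold, and KO2 stood 22.8-fold above the wild-type mean. The difference was 1.75 ± 0.95 (95% interval -0.36 to 3.86, adjusted p = 0.292, limma; exact permutation p = 0.143), 1.06 without KO2 and 0.92 within slide 2.

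A second Ighg probe above background on all 10 arrays stood at -3.42, -3.52, -3.62, -3.74 and -2.82 and at -4.23, -1.56, -2.44, -2.29 and -2.86, a difference of 0.75. The same 3 KO arrays were highest with it, and KO5, at -2.86, lay level with WT5. Igj, the J chain that joins secreted IgM and IgA, stood at -2.21, -2.25, -2.32, -1.18 and -0.77 in wild type and at -2.73, 0.63, -0.73, -1.41 and -1.998 in the knockout. KO2 was highest and KO1 lowest, and the difference was 0.50 ± 0.59 (adjusted p = 0.648, limma), or 0.032 without KO2.

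Ighm, the mu heavy chain of naive B cells and IgM, did not follow Ighg. The tested probe stood at 2.44, 1.51, 0.71, 0.64 and 1.67 in wild type and at 1.71, 1.67, 0.57, 0.30 and -0.15 in the knockout, highest on WT1 and lowest on KO5. The difference was -0.58 ± 0.45 (adjusted p = 0.469, limma). The printed Ighm probe, carried in 10 spots, stood at 1.93, 0.18, -1.64, -0.34 and 0.97 and at 0.71, 0.95, -1.32, -2.82 and -2.55, a difference of -1.23 with KO4 and KO5 lowest. The median standard deviation over its spots within an array was 0.046, small beside the range from -2.82 to 1.93 between arrays.

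**Figure D5:**
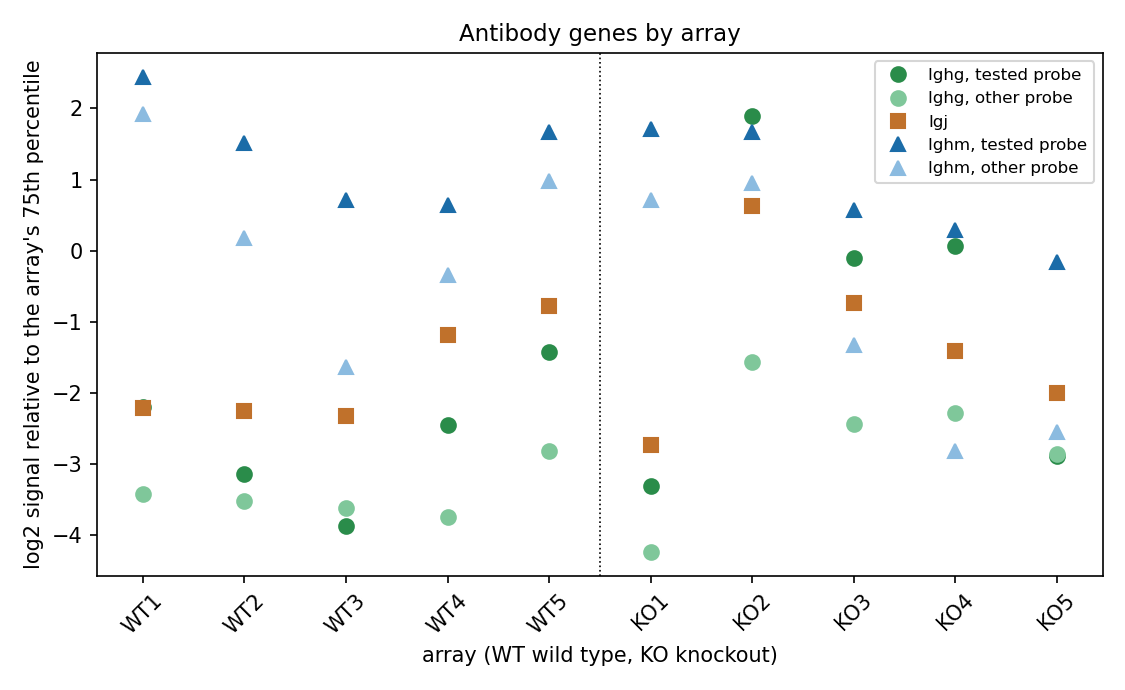
Log2 signal relative to the array's 75th percentile of the immunoglobulin gamma (Ighg) and mu (Ighm) heavy chains, each with 2 probes, and of the J chain (Igj), by array. Ighg and Igj peak on KO2, at 1.90 and 0.63, while the Ighm probes are highest on WT1, at 2.44 and 1.93, and lowest on KO5 and on KO4.

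Other genes of the same pathways were read from lists that were not picked for how they moved, though they were drawn up with earlier results of these data known. Of 23 tested genes of T cell receptor signalling, 2 rose and 1 fell, beside 2.43% and 3.48% of all tested genes, and the median difference was 0.13. The diacylglycerol kinase Dgka, which dampens that signal, stood at -0.65, -0.64, -0.66, -0.54 and -0.88 in wild type and at -0.093, 0.15, 0.10, -0.12 and -0.012 in the knockout, with no overlap. It rose by 0.68 ± 0.084 (adjusted p = 0.0025, limma).

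Themis, a signalling protein of developing T cells, stood at -2.71, -1.92, -2.85, -2.18 and -2.72 and at -4.68, -5.98, -5.79, -4.04 and -4.62, also with no overlap. It fell, with a difference of -2.54 ± 0.37 (adjusted p = 0.0056, limma). It was above background on 5 WT and 1 KO arrays and passed the filter only through the wild type, so a negative difference was favoured by its selection. With KO values raised as for Txk, the KO mean was at least 3.67-fold lower, and after normexp background correction the difference was -0.95 (adjusted p = 0.427, limma). Prkcq, protein kinase C theta of the T cell synapse, rose by 0.40 ± 0.10 (adjusted p = 0.044, limma), with every KO array above every WT array. That call was kept without KO1 and lost without any of the other 9 arrays, with adjusted p-values of 0.0614 to 0.0981 (limma), while those of Dgka and Themis were kept without any single array. With slide as a fixed block none of the 3 calls was kept, the adjusted p-values being 0.0876 for Dgka, 0.156 for Themis and 0.35 for Prkcq (limma). The CD3 chains, Lck and Lat, which act beside these 3 genes in T cells, did not pass the test.

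Of 24 tested genes of B cell receptor signalling and identity, 1 fell, near the 3.48% of all tested genes that fell. It was Cd81, a tetraspanin of the B cell coreceptor that many other cells also express, with a difference of -0.28 ± 0.068 (adjusted p = 0.041, limma). The call was kept without WT3, KO1 or KO2 and lost without any of the other 7 arrays, with adjusted p-values of 0.0668 to 0.112 (limma). Of 5 tested genes of antibody secretion beyond the members, 1 fell, beside the same 3.48%. It was Sdc1, the plasma cell antigen CD138, which hepatocytes also express, with -0.44 ± 0.079 (adjusted p = 0.015, limma). The Sdc1 call was lost with normexp correction (adjusted p = 0.164), without scaling (0.173) and without the filter (0.0696), and with slide as a fixed block both Sdc1 (0.472) and Cd81 (0.432) were lost (limma). Ighg1, another gamma chain, stood at -2.10, -2.62, -2.46, -2.79 and -2.22 in wild type and at -2.83, 1.17, -1.05, -0.41 and -2.57 in the knockout, high on KO2, KO3 and KO4 as Ighg was, with a difference of 1.30 ± 0.67 (adjusted p = 0.268, limma). None of 12 tested genes of T cell identity and costimulation, 11 NK and cytotoxic genes or 20 leukocyte-wide genes changed. Their medians were 0.10, -0.037 and 0.19.

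Among markers of other liver cells, 1 of 14 for Kupffer cells and macrophages rose (Cd163), 1 of 10 for sinusoidal endothelium rose (Dnase1l3), 1 of 7 for dendritic cells rose (Zbtb46) and 1 of 5 for platelets fell (Ppbp). Of all tested genes, 2.43% rose and 3.48% fell, so a count of 1 in lists this short says little about a cell type. Positive and negative differences numbered 9 and 5 for macrophage, 9 and 1 for endothelial, 4 and 3 for dendritic and 1 and 4 for platelet genes. Each of the 4 calls was lost when certain single arrays were left out. That of Cd163 was kept only without WT1, KO1 or KO2, that of Zbtb46 only without WT5 or KO1, and that of Ppbp only without WT2, WT3, KO1 or KO2, while that of Dnase1l3 was lost without WT2, WT3 or KO5. The adjusted p-values where a call was lost ran up to 0.11, 0.115, 0.0745 and 0.0598 in that order (limma). With slide as a fixed block all 4 were lost, with adjusted p-values of 0.123 or more (limma). None changed among 15 hepatocyte, 11 stellate, 6 cholangiocyte, 3 neutrophil, 4 erythroid, 3 mast cell and basophil, 3 pancreatic acinar and 1 adipocyte genes tested. The macrophage list was highest on KO3, where its summed level was 171.8 beside 79.5 to 158.4 on the WT arrays. The endothelial list had a summed level of 33.2 to 52.0 on the KO arrays and 21.4 to 30.7 on the WT arrays, also highest on KO3. Clec4g weighs most in that sum. By the median over tested genes of signal minus wild-type mean the groups overlapped, with KO2 (0.16) and KO5 (0.18) below WT4 (0.198). Lyve1, of the same list, had a negative difference, -0.51. KO2, the array on which most lymphocyte members were highest, was also the highest of the 10 for the summed stellate (96.2), cholangiocyte (21.6), neutrophil (5.52) and dendritic cell (72.9) markers. On the WT arrays these sums reached 89.8, 9.67, 4.61 and 69.6 in that order. In each sum the strongest probes weigh most, here Dcn, Spp1, S100a9 and Bst2 in that order. Krt7 and Krt19, both cholangiocyte markers, were lowest on KO2, at -2.305 and -3.43. By the median over tested genes of signal minus wild-type mean, KO2 was highest for stellate (0.38) and dendritic cell (0.73) genes. For cholangiocyte genes the KO2 median was -0.16, and for neutrophil genes 1.53, below WT1 (1.63) and KO5 (1.596). The part of these cell types in the lymphocyte values was not tested.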

How the data were processed

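Each of the 10 arrays carried 1 Cy3-labelled liver sample. Per the file headers, spots were quantified with version 9.5.1.1 of Agilent Feature Extraction, which the submitters' processing notes list as 9.5. It subtracted background from the deposited intensity values, which carry no normalisation across arrays. Values in the deposited series table were identical.

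Intensities were put on the log2 scale, and each array's 75th percentile was subtracted. Outlier spots were left out and replicate spots averaged. Probes had to be well above background on 4 or more of the 5 arrays in 1 group, and each gene was read by its remaining probe of highest mean. Probes were named through RefSeq accessions or symbols (22951 by accession); Tcf1 for Tcf7 and Ms4a2 for Ms4a1, which belong to other genes, were left out. Groups were compared with limma 3.58.1 in R 4.3.3, two-sided. On simulated arrays of 15806 genes the fit recovered 40% of log2 changes of 0.5 and 82% of changes of 1. Those changes were placed on genes drawn from all tested genes, so the shares do not describe the members. The median standard deviation was 0.34 in WT and 0.76 in KO for the members, beside 0.14 and 0.23 for all genes. Arrays within a group correlated at 0.965 or more; their number limits the precision.

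Values on every array are given for fixed anchors, the 3 members of each lineage with the smallest p and members whose groups do not overlap; of other lists, called genes and those with the 2 smallest p may be named. The members and lists were chosen with earlier results of these data known. Coordinates are those of mm7 in the files. Alternatives covered background correction, scaling, filters, probe choice, slide, replicate block, array weights and left-out arrays.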

Additional observations from a re-analysis of the deposited data

Results flagged for a closer look

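In groups of 5 arrays, a value was singled out when its gap to the nearest other value exceeded 0.71 of the group's range, Dixon's 95% limit. Of 70 groups of values examined, over the 30 tested members and the 5 lineage medians in each genotype, 3 were singled out, and chance singles out about 1 in 20 groups. Tcf7 was -1.91 on KO2, where the other KO arrays ran from -2.15 to -2.10. Zap70 was -0.31 on KO2, where the other KO arrays ran from 1.77 to 2.15. The median of the T cell members was 0.27 on WT5, where the other WT arrays ran from -0.14 to -0.017. The 20 members for which KO2 was the highest of 10 arrays were otherwise not far enough from the next KO array to be singled out.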

How the results depend on the processing

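No lymphocyte marker passed the threshold in any of the 29 alternative analyses except Fcrla. Its negative difference was favoured by its selection, since it passed the filter only through the wild type. Fcrla passed the threshold without KO2, with slide 2 left out (difference -1.10, adjusted p = 0.0296, limma) and with KO1 and KO2 left out together (difference -0.98, adjusted p = 0.0191, limma). The last of these, like the omission of slide 2, was chosen after seeing the data, and KO1 and KO2 were picked because the members were lowest and highest there. The count of called members was thus 1 in those 3 analyses and 0 to 1 when arrays were left out in turn. Of 862 member values under the alternatives, 98 had the opposite sign, and 4 members kept their sign throughout. The T cell median was -0.26 with slide as a fixed block and within slide 2; the other lineage medians moved by less than 1 SD between arrays. Over all genes, 934 calls became 90 with normexp correction, 466 without scaling, 247 without a filter, 38 with slide as a fixed block, 1440 as a random block, 2 within slide 2, 558 with slide 2 left out, and 297 (without WT2) to 1190 (without KO1) with arrays left out. The higher calls were 384 of 934, 310 of 466 without scaling (which moves the median of all genes to 0.12) and 152 of 710 with median scaling. The labels number replicates 1 to 5 in both groups and do not say whether the numbers pair samples. Correlations of same-numbered arrays, after centring each group, ran from -0.215 to 0.036. Of the wild-type arrays, 0 of 5 correlated best with the knockout array of their own number. These values show no pairing by number but cannot exclude a pairing in how samples were handled. A replicate block gave 166 calls and 0 called members. Genes below background, such as Cd8a, Foxp3 and Cd79a, are limited by signal, not by the number of arrays.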

Other observations

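Other immunoglobulin probes carried in the files under their older names were read after the values of Ighg were seen, with no test. Of 39 such probes, 12 were above background on at least 4 arrays of a group. KO2 was the highest array for 11 of these 12, beside 17.4% of all genes tested. On KO2 the 12 lay between 1.5 and 5.31 above the wild-type mean, with a median of 2.52. They include 2 probes named Igh-4 (Ighg1), 5 named Igh-VJ558, a heavy-chain variable family, and 4 named Igl-V1, a lambda light chain. Probes that share a name were counted singly, so the 12 are not independent readings. The exception was the probe named Igh-1a, which was highest on WT5, at 1.02, and lay at -7.17 on KO5.

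The Igh-VJ558 and Igl-V1 probes with the highest means differed in the rest of the arrays. For the Igh-VJ558 probe with the highest mean, KO3, KO4 and KO5 stood at 1.45, 1.83 and 1.59 beside a WT range of -1.26 to 0.84, and KO1 at -0.49. For the Igl-V1 probe with the highest mean, KO5 stood at -2.16 and KO1 at -2.23, both below the WT range of -1.91 to -0.97. So KO5 was high for the one probe and low for the other, while Ighg on KO5, at -2.88, lay within the WT range. This contrast did not hold for every probe of these names. Another Igh-VJ558 probe was lowest on KO5, at -3.64. Another Igl-V1 probe stood at -3.59 on KO5, above its WT range of -4.78 to -4.05.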
